A study of Homo sapiens with 6 samples.

Results

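miR-33a and miR-33b are paralogous microRNAs (miRNAs) that lie inside the genes of the sterol regulatory element-binding proteins, miR-33a in SREBF2 and miR-33b in SREBF1. Their 4 mature arms, miR-33a-5p, miR-33a-3p, miR-33b-5p and miR-33b-3p, were taken by name from a table of 2656 mature miRNAs, and all 4 had counts in every library. The table comes from small RNA sequencing of KPL4, an established human breast adenocarcinoma line. One group held 3 libraries of cells in which the gene of estrogen receptor β (ERβ, encoded by ESR2) had been knocked out, here named knockout S1, S2 and 3. A second group had 3 libraries of knockout cells into which exogenous ERβ had been transfected, called ERβ 1, 2 and 3. All cells of both groups therefore carry the knockout and differ by labelled design in the exogenous receptor. Cells of both groups were grown in the same medium with serum, insulin and hydrocortisone, and no further treatment is labelled. No empty-vector control is among the samples, and the labels do not say whether both groups derive from 1 knockout clone, so the receptor and other differences between the cells cannot be told apart. Nothing says that the replicates were separate cultures, and p-values then measure only the spread between these samples.

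The proteins encoded by SREBF2 and SREBF1 are membrane-bound transcription factors that are cleaved when sterols run low and then switch on cholesterol and fatty acid synthesis and the LDL receptor. miR-33 is made from their introns and is known for repressing the cholesterol exporters ABCA1 and ABCG1, the transporter NPC1, and genes of fatty acid oxidation such as CPT1A and CROT. Host and miRNA are thus regarded as acting together to keep cholesterol and lipids in the cell. In each hairpin the 5p arm is the guide strand usually studied, and the 3p arm is the passenger strand, which can also be loaded into Argonaute. The messenger RNAs of SREBF1, SREBF2, ESR2 and the miR-33 targets are not measured by a small RNA assay.

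The mature sequences, from RefSeq on GRCh38.p14, show what the arms share and how their reads can be told apart. Each is written 5′ to 3′, with the seed (bases 2 to 8, which pair with a target) in capitals.
miR-33a-5p: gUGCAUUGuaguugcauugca
miR-33b-5p: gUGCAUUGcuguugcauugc
miR-33a-3p: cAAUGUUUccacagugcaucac
miR-33b-3p: cAGUGCCUcggcagugcagccc
Both 5p arms have the same seed, so the 7 bases that match it in a target, CAAUGCA, are the same for both. Counted from the 5′ end, they differ at 2 of the 20 positions they have in common, by U9C and A10U from miR-33a to miR-33b, and miR-33a-5p is 1 base longer. In both, the letters of the seed occur again at positions 13 to 19. The 3p arms differ at 7 of 22 positions and have different seeds. Their base composition differs as well, with 45.5% G and C in miR-33a-3p and 72.7% in miR-33b-3p. No miRNA of the reference other than the paralog has the 5p seed. The seed of miR-33b-3p recurs in miR-515-3p and miR-519e-3p, both with 0 counts in all 6 libraries, and that of miR-33a-3p in no other miRNA of the reference.

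The hairpins are shown with both mature arms in capitals, since these are the stretches to which the counts refer.
MIR33A: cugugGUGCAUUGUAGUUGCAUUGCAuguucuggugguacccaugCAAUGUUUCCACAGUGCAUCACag
MIR33B: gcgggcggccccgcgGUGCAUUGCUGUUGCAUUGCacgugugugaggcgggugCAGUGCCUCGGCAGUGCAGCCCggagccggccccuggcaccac
On GRCh38 the hairpin of miR-33a lies on the plus strand of chromosome 22 from 41900944 to 41901012, and that of miR-33b on the minus strand of chromosome 17 from 17813836 to 17813931. Each is on the strand of its host. In GENCODE release 29 both are intronic in every host transcript that spans them, 6 of SREBF2 and 7 of SREBF1. In a principal transcript of either host the hairpin sits in intron 16, between exons 16 and 17 of 19, an intron of 2471 bases in SREBF2 and 475 bases in SREBF1. A further hairpin of SREBF1, that of miR-6777, lies from 17813480 to 17813545 in the next intron, 290 bases from the hairpin of miR-33b. It gave 6 counts of miR-6777-5p and 1 of miR-6777-3p over all libraries, too few to compare groups.

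Total counts per library ran from 10288415 to 14296902. Of the 2656 miRNAs, 783 were abundant enough to test, including the 4 arms of miR-33. Epithelial miRNAs (the miR-200 family, miR-375-3p, miR-205-5p and miR-203a-3p, 8 of 8 present) summed to between 93296 and 110642 CPM per library (counts brought to one library size, with totals scaled by TMM, the trimmed mean of M-values). Blood, muscle, stromal and neural markers each summed to at most 23.8 CPM in every library, miR-122-5p of hepatocytes lay between 17.2 and 28.7 CPM, and miR-126 of endothelium was high, from 18130 to 23174 CPM. The summed stromal markers were at 10.7 to 13.02 CPM in knockout libraries and 5.88 to 6.88 CPM with ERβ. Those of muscle were at 3.14 to 4.37 and 0.473 to 1.27 CPM, and those of endothelium at 21619 to 23174 and 18130 to 20019 CPM. In each of these classes 1 miRNA was called lower by the edgeR test used below: miR-143-3p, miR-1-3p and miR-126-3p. miR-199a-5p and miR-126-5p were not called, and the rest were too scarce to test. Of the 8 epithelial miRNAs 4 were called lower and 1, miR-205-5p, higher, beside 23.1% called of all tested miRNAs. The part of these markers in the results below was not tested. Knockout library S2 stood apart from the remainder of its group, with a chi-square of 307 and 331 per degree of freedom against them, where other pairs within groups had 12.2 to 21.2. Results are therefore also given without it.

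No arm of miR-33 passed the test between knockout cells and cells with exogenous ERβ. The fitted fold changes, ERβ over knockout, were 1.14 for miR-33a-5p, 1.06 for miR-33b-5p, 1.35 for miR-33a-3p and 1.04 for miR-33b-3p. The abundance of the 2 guide arms together was 83.5 ± 8.87 CPM in knockout cells and 92.3 ± 6.26 CPM with ERβ (mean ± SD, n = 3 per group). In no arm were all libraries of one group above all of the other. The count was 0 of 4 in the quasi-likelihood test of edgeR, with a p under 0.05 required after Benjamini-Hochberg adjustment, and also by DESeq2 and limma-voom. Of all tested miRNAs 23.1% passed the edgeR test (9.83% higher and 13.3% lower with ERβ), and 39.8% had no overlap between the groups. An unadjusted p under 0.05 was found in 0 of the 4 arms and in 34.4% of all tested miRNAs.

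**Figure D1:**
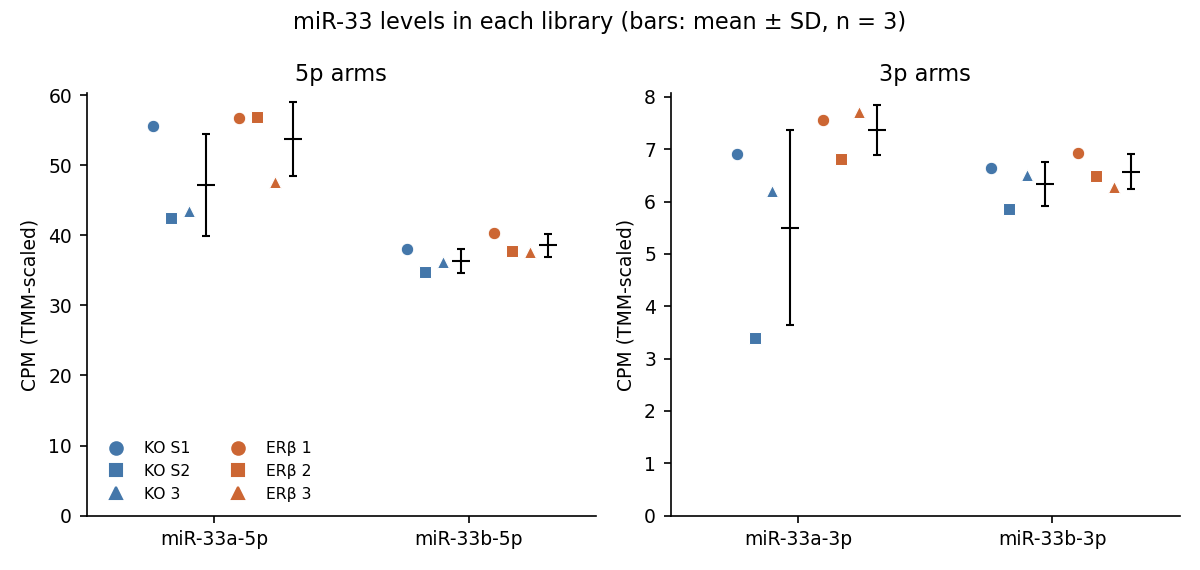
Level of each miR-33 arm in CPM (vertical axes, TMM-scaled, starting at 0 and on a larger scale for the 5p arms) in every library, with the mean ± SD of each group (n = 3) as bars. The groups overlap for all 4 arms, and knockout S2 has the lowest miR-33a-3p at 3.39 CPM.

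miR-33a-5p, the guide strand from SREBF2, was the most abundant of the 4, ranking 229 of the tested miRNAs by mean CPM. Its counts were 611, 514.5 and 427 in knockout S1, S2 and 3, and 629, 851 and 704 in ERβ 1, 2 and 3. Scaled, these are 55.5, 42.5 and 43.4 CPM in knockout cells and 56.7, 56.9 and 47.6 CPM with ERβ. Knockout S1 was close to the upper ERβ libraries, while knockout S2 and 3 lay below all of them. The log2 fold change was 0.19 ± 0.13 (± standard error, n = 3 per group), with a 95% interval of -0.11 to 0.49 and an adjusted p of 0.369 by edgeR's quasi-likelihood test. Without knockout S2 it was 0.11 (adjusted p = 0.406 by edgeR), and without knockout S1 it was 0.32 (adjusted p = 0.122 by edgeR).

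miR-33b-5p, the guide strand from SREBF1, ranked 249 and varied less. It was counted 419, 419.5 and 356 times in knockout S1, S2 and 3, and 448, 564 and 556 times with ERβ. In CPM the knockout libraries were at 38.1, 34.7 and 36.2 and those with ERβ at 40.4, 37.7 and 37.6. Knockout S1 lay above ERβ 2 and 3, and all 6 values fell within a narrow band. The coefficient of variation was 4.66% and 4.08% in the 2 groups, where counting alone gives 5.01% and 4.37%. The log2 fold change was 0.08 ± 0.09, with a 95% interval of -0.13 to 0.30 (edgeR adjusted p = 0.585). In linear terms this interval runs from 0.914-fold to 1.23-fold, the narrowest of the 4 arms. Without knockout S2 the log2 fold change was 0.05.

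miR-33a-3p, the passenger strand from SREBF2, was seen at 76, 41 and 61 counts in knockout cells and 84, 102 and 114 with ERβ. Its levels were 6.91, 3.39 and 6.204 CPM in knockout S1, S2 and 3, and 7.57, 6.82 and 7.71 CPM with ERβ. The low value of knockout S2 set it apart from the other 5 libraries, and knockout S1 lay just above ERβ 2. The 41 counts of S2 have an exact 95% Poisson interval of 29.4 to 55.6 counts. For the 61 counts of knockout 3 it is 46.7 to 78.4 counts. S2 is the deeper library (12228519 total counts against 10619000), so these unscaled intervals cannot be compared as levels. Such intervals cover counting error only. The log2 fold change was 0.43 ± 0.24 (95% interval -0.10 to 0.96, edgeR adjusted p = 0.236), the largest of the 4 arms and the least precise. It was 0.16 without knockout S2 (adjusted p = 0.459 by edgeR), so this library moved the value by more than any other choice tried. Of all tested miRNAs 86.2% had the same or a lower log2 fold change.

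miR-33b-3p, the passenger strand from SREBF1, was at 73, 71 and 64 counts in knockout cells and 77, 97 and 93 with ERβ. In CPM these are 6.64, 5.87 and 6.51 against 6.94, 6.48 and 6.29. The groups were interleaved, with ERβ 3 below 2 knockout libraries. The log2 fold change was 0.05 ± 0.14 (95% interval -0.26 to 0.37, edgeR adjusted p = 0.827), and it turned to -0.01 without knockout S2. At this depth a change of the arm by up to 1.29-fold upward or to 0.833-fold downward lies within the interval.

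**Figure D2:**
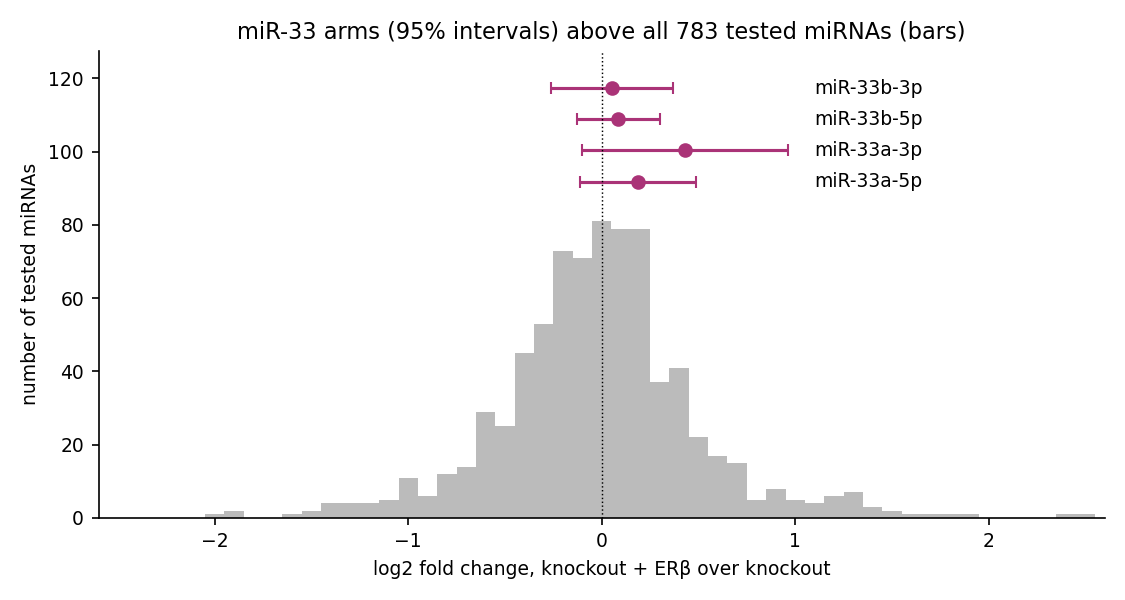
Log2 fold change of each miR-33 arm, ERβ over knockout (horizontal axis), as points with 95% intervals, above a histogram of the log2 fold changes of all 783 tested miRNAs (vertical axis, number of miRNAs; 4 lie outside the axis). All 4 points lie right of 0 and all 4 intervals cross it.

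All 4 estimates were above 0, where the median over all tested miRNAs was -0.01 and 48.7% were above 0. The arms are not independent of each other, since arms of a hairpin come from the same precursor. With library totals instead of TMM factors the median of all tested miRNAs shifted by 0.15, and the arms shifted with it. Relative to that shift miR-33a-5p was at 0.19, miR-33a-3p at 0.44, miR-33b-5p at 0.09 and miR-33b-3p at 0.05, and none passed.

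Reads of the near-identical 5p arms could be divided between the names, which can leave values that are not whole. Those of miR-33a-5p and miR-33b-5p were whole numbers in 5 of 6 libraries, and in knockout S2 each ended in 0.5. The 3p arms were whole in all 6. Summing the guide arms, which leaves out any such division, gave 93.6, 77.2 and 79.6 CPM in the knockout libraries and 97.0, 94.6 and 85.2 CPM with ERβ. Knockout S1 again lay among the ERβ libraries, and the log2 difference of 0.15 had p = 0.20 in an exact two-sided permutation test. The summed passenger arms were at 13.5, 9.25 and 12.7 CPM against 14.5, 13.3 and 13.99 CPM, a log2 difference of 0.25 (two-sided exact permutation p = 0.20, adjusted over the 2 sums 0.20), and of 0.09 without knockout S2. With 3 libraries against 3 this test cannot go below 0.10.

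**Figure D3:**
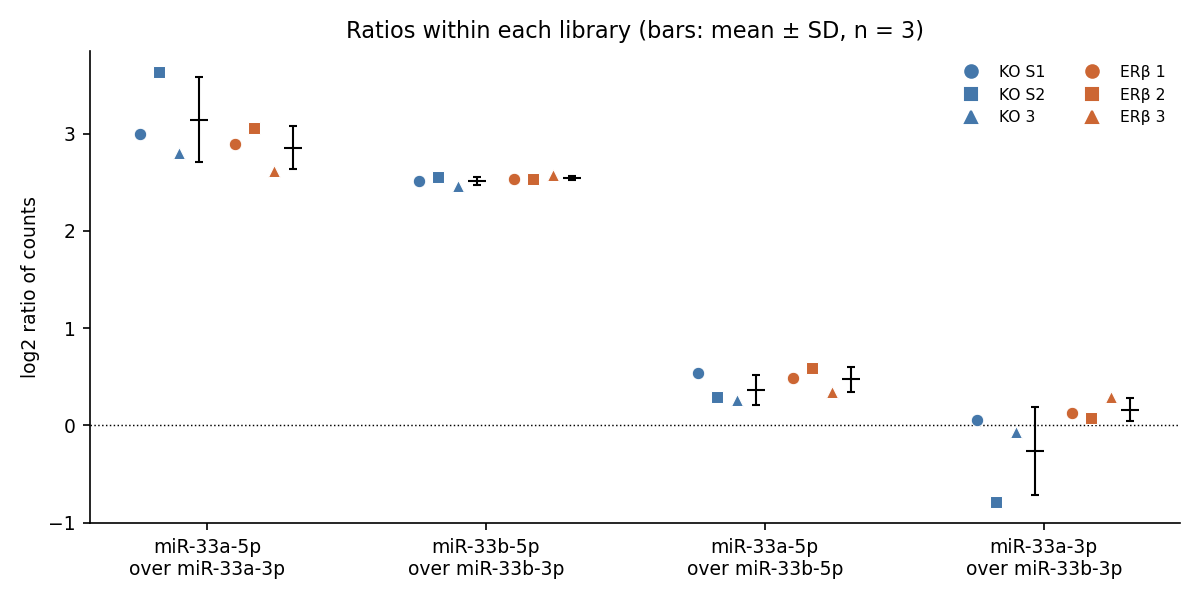
Log2 ratio of counts (vertical axis) between the arms of each hairpin and between the paralogs (horizontal axis), as points for each library and mean ± SD bars for each group (n = 3). The arm ratio of miR-33b is nearly the same in all 6 libraries, between 2.47 and 2.57, and knockout S2 departs from the others in both ratios that involve miR-33a-3p.

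Levels of mature miRNAs can be compared as counts, since each read covers the whole molecule of 20 to 22 bases, though ligation during library preparation can favour one sequence over another. In every library the order was miR-33a-5p, then miR-33b-5p, then the passenger arms. miR-33a-5p exceeded miR-33b-5p in 6 of 6 libraries, by 1.20-fold to 1.51-fold, and made up 54.5% to 60.1% of their combined counts. Against the spread of CPM these neighbours in the order were apart, with the lowest miR-33a-5p at 42.5 CPM and the highest miR-33b-5p at 40.4 CPM. The 3p arms did not differ beyond their spread: miR-33a-3p was above miR-33b-3p in 4 of 6 libraries, with means of 6.43 and 6.45 CPM over all libraries. Together the 4 arms made up 0.00855% to 0.0120% of all counts.

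The ratio of guide to passenger strand within a library does not depend on scaling. For miR-33b it was 5.71, 5.88 and 5.53 in knockout S1, S2 and 3, and 5.79, 5.79 and 5.95 in ERβ 1, 2 and 3. The groups overlapped only through knockout S2, and no library departed from the others. The log2 ratio was 2.51 ± 0.04 in knockout cells and 2.55 ± 0.02 with ERβ, a difference of 0.03 (exact two-sided permutation p = 0.40). Without knockout S2 the difference was 0.06 (exact permutation p = 0.10, unadjusted and the smallest that the remaining libraries allow). The SD of this log2 ratio within groups, 0.04, was below the 0.18 that counting error gives for such counts. Only 1 of 209 hairpins with both arms tested had a smaller SD (median 0.24). For miR-33a the ratio was 7.99, 12.4 and 6.95 in knockout cells and 7.45, 8.31 and 6.15 with ERβ, highest in knockout S2. Its log2 difference of -0.29 (exact permutation p = 0.50) became -0.04 without S2. Its SD within groups was 0.34, where counting error gives 0.18, and 145 of the 209 hairpins had a smaller SD.

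Between the paralogs, the log2 ratio of the guide arms, miR-33a-5p over miR-33b-5p, was 0.37 ± 0.15 in knockout cells and 0.47 ± 0.13 with ERβ. The groups overlapped, and the difference of 0.11 had an exact permutation p of 0.40. The log2 ratio of miR-33a-3p over miR-33b-3p was 0.06, -0.78 and -0.07 in knockout S1, S2 and 3, and 0.12, 0.07 and 0.29 with ERβ. Every ERβ library was higher here, with ERβ 2 only just above knockout S1. The difference of 0.43 had p = 0.10 in the exact two-sided permutation test, the smallest this design allows, and an adjusted value of 0.40 over the 4 ratios. Without knockout S2 the difference was 0.17.

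The miRNAs whose profile over the 6 libraries was most like each arm were found by the root-mean-square difference of log2 CPM, each profile centred on its own mean, among miRNAs averaging at least 10 CPM. For miR-33b-3p the nearest of 390 was miR-33b-5p, its own guide strand, at 0.03, followed by miR-378a-3p and miR-125b-2-3p. For miR-33b-5p they were miR-378a-3p (0.02), miR-125b-2-3p (0.05) and miR-15a-5p, with miR-33b-3p, under 10 CPM and so not a candidate, at 0.03. For miR-33a-5p they were miR-500b-5p (0.09), miR-182-3p and miR-652-5p, with miR-33b-5p ranked 14 of 389. For miR-33a-3p they were miR-106b-5p (0.11), miR-374a-5p and miR-3613-5p, with its own guide strand ranked 86 of 390. The measure sets profiles that vary little near each other. The median distance to the candidates ran from 0.19 for both miR-33b arms to 0.42 for miR-33a-3p. These are descriptions of 6 points that share 2 groups and a deviating library.

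Other miRNAs known for cholesterol and lipid handling were examined as a list of 30, of which 25 could be tested. In all, 2 were higher and 4 lower with ERβ, or 24.0% called, beside 23.1% of all tested miRNAs. The median log2 fold change was -0.06, beside -0.01 for all. Without knockout S2 the list had 7 higher and 7 lower of 26 tested, beside 122 and 157 of all 800 tested miRNAs. Leaving out knockout S1 gave 1 higher and 4 lower of 27 tested, beside 62 and 81 of all 813. Leaving out knockout 3 gave 1 higher and 4 lower of 26 tested, beside 71 and 88 of all 815. With any 1 of the ERβ libraries left out, the list had 0 higher and 4 lower of 25 to 27 tested. Of all 800 to 811 miRNAs then tested, 49 to 53 were higher and 58 to 62 lower.

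**Figure D4:**
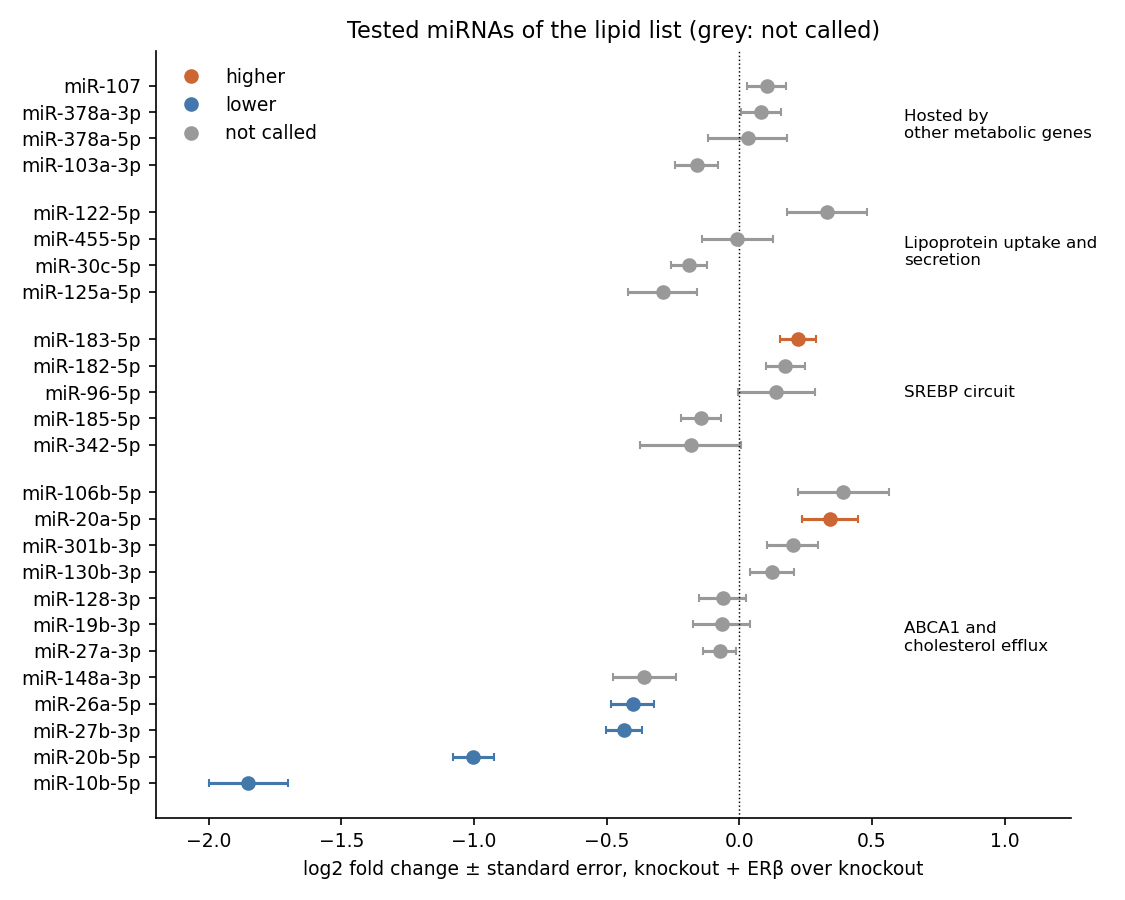
Log2 fold change, ERβ over knockout, with its standard error (horizontal axis) for the 25 tested miRNAs of the lipid list, in 4 groups. Orange points passed as higher, blue as lower and grey did not pass; miR-10b-5p and miR-20b-5p lie farthest from 0 at -1.85 and -1.003.

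Of the 12 tested miRNAs of the group reported to repress ABCA1, the exporter that miR-33 also targets, 4 fell and 1 rose (41.7% called), beside 13.3% lower and 9.83% higher among all tested miRNAs. Whether this group differs from the remainder of the list or of the table was not tested. miR-10b-5p, a HOX-cluster miRNA, fell from 12.3, 11.6 and 13.8 CPM in knockout S1, S2 and 3 to 3.24, 3.74 and 3.38 CPM with ERβ, well apart (log2 fold change -1.85 ± 0.15, edgeR adjusted p = 4.21e-05). miR-20b-5p, of the X-linked relative of the miR-17 cluster, fell from between 538 and 603 CPM to between 279 and 288 CPM (-1.003 ± 0.08). miR-27b-3p (-0.43 ± 0.07) and the abundant miR-26a-5p (-0.40 ± 0.08) fell by less. miR-20a-5p rose from 4311, 3294 and 4346 CPM to 4961, 4996 and 5186 CPM (0.34 ± 0.11, edgeR adjusted p = 0.0441). It was at 0.22 without knockout S2. It lost the call when ERβ 1, 2 or 3 was left out (edgeR adjusted p = 0.0861, 0.0821 and 0.167), and when the TMM factors were computed without the 10 most abundant miRNAs. miR-20a-5p and miR-20b-5p are near-identical and may carry part of each other's reads.

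Of the 5 miRNAs of the SREBP circuit, which SREBP2 induces or which act on the SREBP pathway, 1 rose. This is 20% called, beside 23.1% of all tested miRNAs. miR-183-5p, of the cluster with miR-96 and miR-182, went from 4305, 4842 and 4486 CPM to 5286, 5230 and 5366 CPM (log2 fold change 0.22 ± 0.07, edgeR adjusted p = 0.0442). All ERβ libraries were higher, but the call was lost in 7 of 15 alternatives, among them the DESeq2 test and leaving out any library other than knockout S2 (edgeR adjusted p from 0.0985 to 0.166). Its cluster partners miR-182-5p (0.17 ± 0.07) and miR-96-5p (0.14 ± 0.15) did not pass. None of 4 tested miRNAs of lipoprotein uptake and secretion passed, where 23.1% of all tested miRNAs did. Of these 4, miR-30c-5p, a repressor of lipoprotein assembly, was at -0.19 ± 0.07 (edgeR adjusted p = 0.0776). It passed in only 1 of 15 alternatives, without knockout S2 (-0.23, edgeR adjusted p = 1.86e-04). With library totals it was at -0.03 (edgeR adjusted p = 0.741). The liver miRNA miR-122-5p was at 0.33 ± 0.15.

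Like miR-33, some miRNAs sit in introns of other metabolic genes, the miR-103 and miR-107 pair in pantothenate kinase genes and miR-378a in PPARGC1B. None of these 4 passed, where 23.1% of all tested miRNAs did. miR-103a-3p was at -0.16 ± 0.08 (edgeR adjusted p = 0.194), miR-107 at 0.10 ± 0.07, miR-378a-3p at 0.08 ± 0.08 and miR-378a-5p at 0.03 ± 0.15. Whether these values differ from those of miR-33 was not tested.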

How the data were processed

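Small RNA libraries of 6 KPL4 samples were made with a QIAseq miRNA kit, per the labels' protocols. The submitters' processing notes name FastQC, Trim Galore and GRCh38, with no versions. Aligner, counter, miRNA release and any collapsing of molecular identifiers are not stated in the labels or the file header. The deposited values are the authors' expected counts for each mature miRNA; between 6.33% and 7.27% of a library's values are not whole. Columns were matched by name; 2 knockout columns both carry the number 1 and are known by group only.

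Counts were rounded to whole numbers and fitted with edgeR 4.0.16 under R 4.3.3 (filterByExpr, minimum count 10 and total 15; TMM; robust quasi-likelihood test; no covariates; 6 libraries; Benjamini-Hochberg over 783 miRNAs). Standard errors divide the fitted change by the root of its F statistic. Ratios used a pseudocount of 0.5 and exact two-sided permutation tests. The fit was tested on simulated data. Alternatives were other scalings and filters, DESeq2 1.42.0, limma-voom (limma 3.58.1), a replicate block and each library left out. Named miRNAs were the members, list members that passed or else had the smallest p of their group, seed and host relatives, and the 3 most similar profiles; others were chosen after their values were seen. Members and lists were chosen with earlier results of these data known. Figures were drawn with matplotlib 3.10.9.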

Additional observations from a re-analysis of the deposited data

How the results depend on the processing

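None of the 4 miR-33 arms passed the test under any alternative in which it could be fitted (15 for each 5p arm; 14 for each 3p arm, since the filter of 10 CPM in 3 libraries removes both). Their log2 fold changes ranged from 0.11 to 0.35 for miR-33a-5p, 0.16 to 0.64 for miR-33a-3p, 0.05 to 0.24 for miR-33b-5p and -0.01 to 0.21 for miR-33b-3p, whose sign reversed only without knockout library S2 (-0.0062 to 0.0948 over the libraries left out). The lowest adjusted p of any arm was 0.0818. No ratio or sum changed sign. With a replicate block on the column numbers the arms were at 0.18, 0.46, 0.11 and 0.07 (order: miR-33a-5p, miR-33a-3p, miR-33b-5p, miR-33b-3p), 38 miRNAs were higher and 50 lower, and the lipid list had 0 higher and a median of -0.0417, and miR-20a-5p, miR-26a-5p and miR-183-5p lost their calls; the labels do not say that numbers pair the samples, only number 3 is carried by 1 column of each group (r = 0.12 between their deviations, across miRNAs), and residual degrees of freedom are fewer. Against 77 higher and 104 lower, 123 were higher with upper-quartile factors, 146 were higher and 61 lower with library totals, and 66 were lower with the filter of 10 CPM in 3 libraries, where fewer were tested. Leaving out a library gave 49 to 122 higher and 58 to 157 lower, of 800 to 815 tested. For the lipid list, 4 were higher with upper-quartile factors (median 0.0478), 6 with library totals (median 0.0952), 1 with TMM without the 10 most abundant and 1 with the DESeq2 test; the median was -0.0150 without a filter, 0.00692 with the filter of 10 CPM and -0.0518 with limma-voom. Leaving out a library gave 0 to 7 higher and 4 to 7 lower, of 25 to 27 tested, and medians from -0.0689 to 0.0394. Apart from scaling and filter effects, the cause was not tested. Depth limits the 3p arms most, at 41 to 114 counts per library. At the mean count of a group, counting error alone gives a coefficient of variation of 10.0% to 12.98%. It is larger at the 41 counts of miR-33a-3p in knockout S2.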
